A study of Mus musculus with 42 samples.

Results

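The genes described here are 10 components of bone morphogenetic protein (BMP) signalling. They were taken by name from 22180 genes measured in sorted cells and in unsorted whole or crypt samples of the mouse gastrointestinal tract. The ligands are Bmp2, Bmp4 and Bmp7, and the receptors are Bmpr1a and Bmpr2. The target genes are Id1, Id2 and Id3, and the inhibitory Smads are Smad6 and Smad7. The set was chosen by symbol, and each gene had exactly 1 probe set that named it alone. RNA from 42 samples, biological replicates by their labels, was hybridised to Affymetrix arrays. The study set out to find genes enriched in pyloric stem cells, the cells that renew the glands at the outlet of the stomach.

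BMP ligands are secreted proteins that bind a receptor complex of type I chains, such as the product of Bmpr1a, and type II chains, such as that of Bmpr2. The receptors phosphorylate Smad1, Smad5 and Smad9, which enter the nucleus with Smad4 and switch on direct targets, among them the Id genes, whose products block basic helix-loop-helix transcription factors. Smad6 and Smad7 are also induced by the pathway and damp it. In the intestine BMP signalling is known to be low at the crypt base, where stem cells lie, and higher toward the surface, and it restrains stem cell expansion.

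All mice were untreated adults not selected by sex, with a minimum age given as 7 to 8 weeks, and glands were digested to single cells before flow sorting. The Lgr5-EGFP-IRES-CreERT2 line, called IRES mice below, carries green fluorescent protein and an inducible Cre at the Lgr5 locus and is known to express them in a mosaic way. From it came 4 Lgr5Hi and 4 Lgr5Lo pyloric samples with 2 of whole pyloric glands, 2 Lgr5Hi and 2 Lgr5Lo samples of the small intestine with 1 whole and 2 crypt samples, and 3 Lgr5Hi and 3 Lgr5Lo samples of the colon with 2 of whole colon. The Lgr5-EGFP-DTR line, called DTR mice, carries a fluorescent protein fused to the diphtheria toxin receptor at the same locus and gave 3 Lgr5Hi, 3 Lgr5Lo and 3 Lgr5Neg pyloric samples. No toxin was given. Wild-type mice, sorted with an antibody to the water channel Aqp5, gave 4 Aqp5Pos and 4 Aqp5Neg pyloric samples. The labels call Lgr5Hi and Aqp5Pos cells stem cells, Lgr5Lo cells differentiated in IRES mice but progenitors in DTR mice, and Lgr5Neg cells differentiated.

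Values are deposited log2 levels, so a difference of 1 is a doubling. Array medians lay between 3.82 and 4.25, and a level near or below them is close to background. A probe set's level was compared only with itself, because probes of different genes respond differently. The sort genes followed the labels in the sorted pylorus: Lgr5 was 8.66 to 8.81 in DTR Lgr5Hi, 6.15 to 6.82 in Lgr5Lo and 4.41 to 4.87 in Lgr5Neg cells, and Aqp5 was 8.26 to 9.15 in Aqp5Pos against 6.95 to 7.41 in Aqp5Neg cells. Some libraries stood apart. The first whole-colon array correlated better over genes with whole pylorus (r = 0.96) than with colon Lgr5Lo cells (0.92), whereas the second gave 0.92 and 0.98. Its 4 pit cell markers averaged 12.87 against 4.33 on the second array, which goes against its label. The 2 arrays labelled crypt had the lowest Lgr5 of the small intestine, 4.81 and 5.04, against 7.09 in whole tissue. They also had its lowest dividing cell list average, 6.25 and 6.94, and the highest enterocyte list average of the series, 11.73 and 11.77. Among pyloric arrays, IRES Lgr5Hi and Lgr5Lo replicate 4 held the most Paneth cell transcript, a list average of 7.31 and 8.13 over 4 markers, against at most 4.09 on the DTR arrays. The epithelial markers averaged 9.39 to 10.78 on all arrays, while endothelial and immune markers stayed between 3.17 and 4.61.

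**Figure D1:**
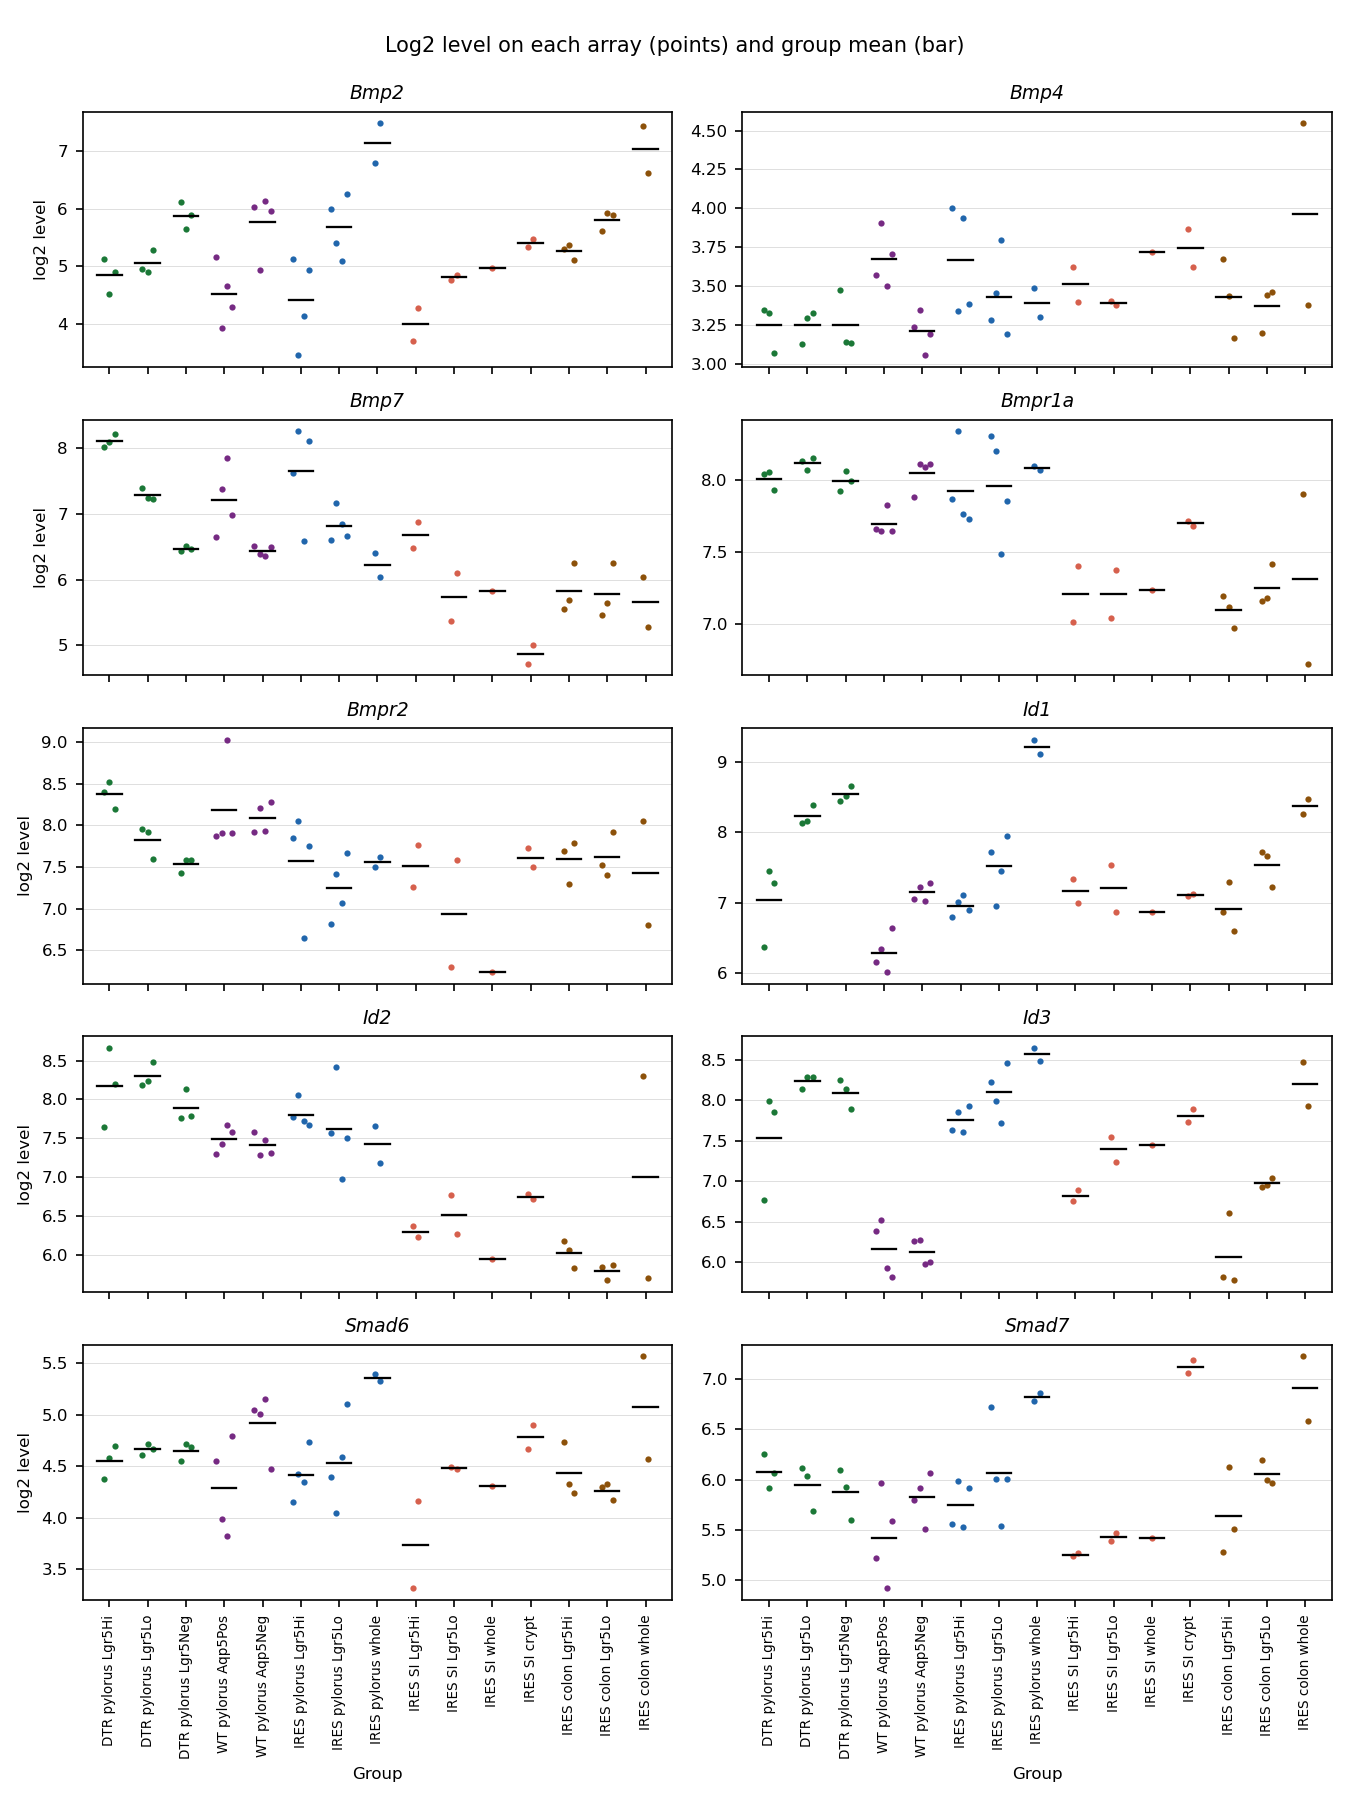
Log2 level of the 10 genes on each of the 42 arrays (vertical axis, its own range per panel) in the 15 groups (horizontal axis; SI is small intestine); points are arrays, bars are group means and colours mark mouse line and organ. Bmp7 steps down from Lgr5Hi to Lgr5Neg cells in DTR mice, Id1 is highest in whole pylorus, and the mean of Id2 is higher in every pyloric group than in sorted cells of small intestine and colon.

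Among the ligands of the pylorus, Bmp2 was lower in DTR Lgr5Hi and Lgr5Lo cells than in Lgr5Neg cells, in Aqp5Pos than in Aqp5Neg cells and in IRES Lgr5Hi than in Lgr5Lo cells, and Bmp7 was higher in brighter DTR cells. No Bmp7 difference passed in the other pyloric sorts. Bmp2 (probe set 17376677, chromosome 2) stood at 5.13, 4.52 and 4.90 on the DTR Lgr5Hi arrays, at 4.96, 4.91 and 5.28 on the Lgr5Lo arrays, and at 6.11, 5.65 and 5.89 on the Lgr5Neg arrays. Both fluorescent gates lay wholly below the negative gate and overlapped each other. In limma fits adjusted over all genes, Bmp2 was lower by a log2 difference of -1.03 ± 0.18 (SE) in Lgr5Hi than in Lgr5Neg cells (adjusted p = 0.0014), and by -0.83 ± 0.18 in Lgr5Lo than in Lgr5Neg cells (adjusted p = 0.0321). Between Lgr5Hi and Lgr5Lo cells the difference was -0.20, with a 95% interval from -0.59 to 0.20. In 1 fit over all 42 arrays neither Bmp2 call passed (adjusted p = 0.0703 for Lgr5Hi minus Lgr5Neg and 1 for Lgr5Lo minus Lgr5Neg). The Lgr5Lo call was also lost without Lgr5Lo replicate 1 or 2 or Lgr5Neg replicate 1 or 3, and all 3 comparisons share arrays.

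The same direction was measured with the other sorts, but the IRES gates compare Lgr5Hi with Lgr5Lo cells. That comparison gave -1.27 in IRES pylorus (interval -1.92 to -0.63) and -0.20 in DTR pylorus (interval -0.59 to 0.20). The contrast between these lines was not tested. In wild-type pylorus Bmp2 was 5.16, 3.92, 4.66 and 4.30 in Aqp5Pos cells and 6.04, 4.94, 6.13 and 5.96 in Aqp5Neg cells, a difference of -1.26 ± 0.31 (adjusted p = 0.0488). The groups overlapped only through Aqp5Neg replicate 2. The call was lost without Aqp5Pos replicate 2, 3 or 4 or Aqp5Neg replicate 1, 3 or 4, with adjusted p from 0.00997 to 0.154 over 14 alternatives. In IRES pylorus Bmp2 was 5.12, 3.45, 4.14 and 4.93 in Lgr5Hi cells and 6.00, 5.40, 5.09 and 6.25 in Lgr5Lo cells. These groups touched at 5.12 and 5.09, and the difference of -1.27 ± 0.31 had an adjusted p of 0.039. It did not pass without Lgr5Hi replicate 2 or 3, without Lgr5Lo replicate 1 or 4, without both arrays numbered 4, or with arrays centred on their medians (adjusted p from 0.0128 to 0.142 over 16 alternatives). IRES Lgr5Hi replicate 2 (3.45) lay below the range of the array medians and Lgr5Hi replicate 3 (4.14) and Aqp5Pos replicate 2 (3.92) within it, so the sizes of both differences rest partly on levels close to background.

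In the intestine the Bmp2 difference between Lgr5Hi and Lgr5Lo cells did not pass the test. It was -0.82 in the small intestine, with an interval from -1.73 to 0.09, and -0.55 in the colon, from -1.30 to 0.19. Whether the pyloric difference differed from the others was tested directly: pylorus minus colon gave -0.72 (adjusted p = 0.776) and pylorus minus small intestine -0.46 (adjusted p = 0.944). Bmp2 was highest in whole pylorus, at 6.81 and 7.49, which was 2.74 ± 0.38 above pyloric Lgr5Hi cells (adjusted p = 8.25e-05), a call kept under all 14 alternatives, though its size rests on the same low Lgr5Hi values. In a bulk sample, fewer cells of a type and less RNA per cell cannot be told apart, here and in every result below.

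Bmp7 (probe set 17395041, chromosome 2) rose in steps with Lgr5 in DTR pylorus. It was 8.02, 8.11 and 8.23 in Lgr5Hi cells, 7.40, 7.24 and 7.23 in Lgr5Lo cells, and 6.44, 6.51 and 6.47 in Lgr5Neg cells, with no overlap between any of the 3 gates. Lgr5Hi exceeded Lgr5Neg cells by 1.64 ± 0.13, a 3.12-fold difference (adjusted p = 2.68e-06). Each step was of like size, 0.82 ± 0.13 from Lgr5Lo to Lgr5Hi (adjusted p = 0.003) and 0.82 ± 0.13 from Lgr5Neg to Lgr5Lo (adjusted p = 0.00422). The larger difference passed under all 12 alternatives, and each step failed in 1 fit over all 42 arrays (adjusted p = 0.366 and 0.819).

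Outside the DTR line the Bmp7 difference pointed the same way in the pylorus without passing the test. Aqp5Pos cells were at 6.66, 7.38, 7.85 and 6.99, all above the 6.36 to 6.52 of Aqp5Neg cells, a difference of 0.77 (adjusted p = 0.101). It passed at 0.96 (adjusted p = 0.0409) without Aqp5Pos replicate 1. IRES Lgr5Hi cells were at 7.63, 8.26, 6.59 and 8.12 and Lgr5Lo cells at 6.60, 7.18, 6.85 and 6.67. Lgr5Hi replicate 3 made these groups overlap: the difference was 0.83 (adjusted p = 0.205) with it and 1.18 (adjusted p = 0.0215) without it. The difference was 0.95 in the small intestine (interval 0.06 to 1.84, adjusted p = 0.994) and 0.05 in the colon (interval -0.68 to 0.77).

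Bmp7 also differed between organs. In IRES Lgr5Hi cells it was 6.49 and 6.88 in the small intestine and 5.56, 5.69 and 6.25 in the colon, so every colon array lay below every pyloric one. The pylorus exceeded the colon by 1.82 ± 0.33, or 3.52-fold (adjusted p = 0.00081), under all 15 alternatives. The pyloric excess over the small intestine was 0.97 (adjusted p = 0.0981), and it passed at 1.32 (adjusted p = 0.00702) without pyloric Lgr5Hi replicate 3. In Lgr5Lo cells the excess was 1.09 over small intestine (limma adjusted p = 0.0762) and 1.04 over colon (0.0631), without overlap. Neither passed, but both did in 1 fit over all 42 arrays (limma adjusted p = 0.0214 and 0.014). Opposite to Bmp2, Bmp7 was lower in whole pylorus, at 6.41 and 6.04, than in Lgr5Hi cells, by -1.42 ± 0.37 (adjusted p = 0.023). That call was lost without either whole array, without Lgr5Hi replicate 2 or 4, without both arrays numbered 4, and with centred arrays. The lowest Bmp7 of the series was in the arrays labelled crypt, 4.72 and 5.01.

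Bmp4 (probe set 17305709, chromosome 14) had group means below the lowest array median of 3.82, except in whole colon. Its 15 group means ran from 3.21 in Aqp5Neg cells to 3.97 in whole colon, where the first array read 4.55 and the second 3.38. No difference in Bmp4 passed the test; the interval for DTR Lgr5Hi minus Lgr5Neg cells ran from -0.32 to 0.31. Aqp5Pos cells, at 3.57, 3.90, 3.50 and 3.71, all lay above the 3.06 to 3.35 of Aqp5Neg cells, at levels within or below the range of the array medians. That difference was 0.46, with an interval from 0.10 to 0.82 (limma adjusted p = 0.159). Bmp4 is known as a product of the connective tissue under the epithelium. The fibroblast and smooth muscle markers, 10 genes, averaged 3.70 to 4.35 on sorted arrays and 5.27 and 4.57 on the whole pyloric arrays, and at such levels a low transcript cannot be read from these arrays.

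The receptors differed less. Bmpr2 (probe set 17213321, chromosome 1), the type II chain, was 8.41, 8.52 and 8.20 in DTR Lgr5Hi cells, 7.95, 7.92 and 7.60 in Lgr5Lo cells and 7.43, 7.58 and 7.59 in Lgr5Neg cells. All Lgr5Hi values exceeded all others. The difference from Lgr5Neg cells was 0.84 ± 0.15 (adjusted p = 0.00122) and that from Lgr5Lo cells 0.55 ± 0.15 (adjusted p = 0.048). In 1 fit over all 42 arrays neither passed (adjusted p = 0.141 and 0.935). The smaller failed in 7 of 12 alternatives, among them those without Lgr5Hi replicate 1 or 2 and those without any 1 of the Lgr5Lo arrays. In wild-type mice Bmpr2 did not separate the gates, with 7.88, 7.92, 9.03 and 7.91 in Aqp5Pos and 7.92 to 8.28 in Aqp5Neg cells. The difference was 0.10, with an interval from -0.46 to 0.65, and replicate 3 stood alone. Bmpr2 also did not pass in IRES pylorus (0.33, interval -0.33 to 0.99), small intestine (0.57, -0.36 to 1.50) or colon (-0.02, -0.78 to 0.74).

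Bmpr1a (probe set 17305042, chromosome 14), the type I chain, was flat across the DTR gates. Its levels there were 7.92 to 8.15, and the Lgr5Hi minus Lgr5Neg interval ran from -0.25 to 0.28. Aqp5Pos cells, at 7.64 to 7.83, lay below the 7.88 to 8.11 of Aqp5Neg cells, a difference of -0.36 that did not pass (adjusted p = 0.236). Its clearest contrast was between organs: 7.87, 8.34, 7.77 and 7.73 in pyloric Lgr5Hi cells, 7.01 and 7.40 in small intestine, and 7.19, 7.11 and 6.97 in colon. Pylorus was above both without overlap. The excess over colon was 0.83 ± 0.25 (adjusted p = 0.0416) and that over small intestine 0.71 (adjusted p = 0.106). The colon call was lost in 7 of 15 alternatives, including each fit without 1 colon Lgr5Hi array, without pyloric replicate 1 or 2, without both arrays numbered 4, and with centred arrays. In Lgr5Lo cells the pyloric excess was 0.75 over small intestine (limma adjusted p = 0.108) and 0.71 over colon (0.0945), without overlap. Neither passed, but both did in 1 fit over all 42 arrays (limma adjusted p = 0.0222 and 0.0157).

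The Id genes did not move as a unit. Id1 was lower in DTR Lgr5Hi and in Aqp5Pos cells, without passing between the IRES pyloric gates, and Id2 and Id3 were higher in pylorus than in colon in sorted cells of IRES mice. RefSeq promoter windows of assembly GRCm38.p6 were matched for 6 of the 10 genes: Bmpr1a, Bmpr2, Bmp4, Id2, Id3 and Smad6. Those of Id2 (chr12:25096063-25096342, minus strand) and Id3 (chr4:136143572-136143851, plus strand) are shown because both genes differ between organs. Each is printed 5′ to 3′ over 280 bases, of which 30 run from the start site on. Capitals mark GGCGCC and GGAGCC, letters found in GC-rich elements that Smad1 and Smad5 are known to bind, searched on both strands.
Id2: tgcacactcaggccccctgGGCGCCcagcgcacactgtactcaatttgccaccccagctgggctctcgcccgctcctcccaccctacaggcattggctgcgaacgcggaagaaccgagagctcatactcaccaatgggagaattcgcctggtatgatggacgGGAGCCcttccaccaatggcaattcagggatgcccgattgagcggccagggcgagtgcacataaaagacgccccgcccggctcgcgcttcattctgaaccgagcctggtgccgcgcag
Id3: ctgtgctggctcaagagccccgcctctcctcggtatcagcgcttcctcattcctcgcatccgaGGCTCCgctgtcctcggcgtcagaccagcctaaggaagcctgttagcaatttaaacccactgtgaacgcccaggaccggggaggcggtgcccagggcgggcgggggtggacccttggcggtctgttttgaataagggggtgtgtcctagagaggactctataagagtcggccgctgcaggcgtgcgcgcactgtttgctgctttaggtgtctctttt
Id2 held 1 GGCGCC, which began 231 bases before the start site, and 1 GGAGCC, 88 bases before it, and Id3 held 1 GGAGCC match, on the other strand, 187 bases before it. Over the 300 bases of the full windows, GGCGCC occurred in 11.9% and GGAGCC in 30.8% of 32851 promoters, so such matches are common. Every other matched member held them too: Bmpr1a and Bmpr2 had 1 GGCGCC each, Bmp4 1 GGAGCC and Smad6 2 GGAGCC. Those of Smad6 are left in lower case where its window is printed below. The matches therefore do not set Id2 and Id3 apart from the other matched members. The matches describe sequence and are no measure of binding.

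Id1 (probe set 17377778, chromosome 2) was 6.38, 7.45 and 7.29 in DTR Lgr5Hi cells, 8.14, 8.16 and 8.39 in Lgr5Lo cells and 8.45, 8.51 and 8.66 in Lgr5Neg cells. The bright gate lay wholly below both others. Lgr5Hi minus Lgr5Neg was -1.50 ± 0.23, a 2.83-fold lower level (adjusted p = 0.000495), under all 12 alternatives. Lgr5Hi minus Lgr5Lo was -1.19 ± 0.23 (adjusted p = 0.0107) and failed without Lgr5Lo replicate 3 (adjusted p = 0.0608). Lgr5Lo and Lgr5Neg cells differed by -0.31, with an interval from -0.81 to 0.18.

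The antibody sort gave the same direction. Id1 was 6.17, 6.34, 6.02 and 6.65 in Aqp5Pos cells, all below the 7.06, 7.23, 7.03 and 7.28 of Aqp5Neg cells. The difference was -0.86 ± 0.18 (adjusted p = 0.0283). It failed without Aqp5Pos replicate 1 or 3 or any 1 Aqp5Neg array, with adjusted p from 0.0113 to 0.105 over 14 alternatives. In IRES pylorus the values were 6.81, 7.01, 7.11 and 6.89 in Lgr5Hi and 7.73, 6.96, 7.45 and 7.95 in Lgr5Lo cells. They overlapped at Lgr5Lo replicate 2, and the difference of -0.57 did not pass (adjusted p = 0.227). In the colon the difference was -0.62 (adjusted p = 1), and in the small intestine -0.04, with an interval from -0.68 to 0.59.

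Some marker lists of other cell types moved with Id1 and Bmp2, and others did not. The pit cell list averaged 8.02 to 8.99 in DTR Lgr5Hi, 11.26 to 11.76 in Lgr5Lo and 12.28 to 12.31 in Lgr5Neg cells, and 4 of its 4 genes were lower in Lgr5Hi than in Lgr5Neg cells. The dividing cell list averaged 6.23 to 7.22, 8.13 to 8.39 and 8.36 to 8.78 in the same order, with 5 of 5 genes lower. Tuft cell markers ran the other way, at 7.19 to 8.21 in Lgr5Hi against 5.50 to 6.48 in Lgr5Neg cells. So did the gland mucous cell list, at 11.95 to 12.15 in Lgr5Hi, 11.48 to 11.79 in Lgr5Lo and 9.62 to 10.22 in Lgr5Neg cells. Of its 3 genes 2 were higher in Lgr5Hi than in Lgr5Neg cells, a comparison in which 18.3% of all genes were called. The DTR parietal cell list was 4.26 to 5.59 in Lgr5Hi, 6.59 to 6.94 in Lgr5Lo and 3.84 to 4.73 in Lgr5Neg cells. That is the order of neither Id1 nor Bmp2. In wild-type mice the pit list was 10.33 to 11.22 in Aqp5Pos and 12.12 to 12.24 in Aqp5Neg cells, and the tuft list was lower in Aqp5Pos cells, 4.33 to 4.69 against 5.83 to 6.19. There the gland mucous list was 11.73 to 11.85 in Aqp5Pos and 10.61 to 10.91 in Aqp5Neg cells, and the parietal cell list 4.74 to 6.23 and 7.19 to 8.39. In IRES pylorus, Lgr5Hi against Lgr5Lo cells had the gland mucous list at 11.56 to 12.05 against 10.25 to 11.19, the pit list at 10.74 to 12.21 against 12.22 to 12.48, the parietal list at 6.42 to 7.67 against 8.00 to 8.95 and the dividing list at 6.71 to 7.14 against 7.47 to 8.12; of these genes only 1 dividing cell gene passed the test. Between these IRES gates 1.49% of all genes were called. The IRES tuft list overlapped, at 5.19 to 8.13 in Lgr5Hi and 6.55 to 8.13 in Lgr5Lo cells. The part of these cell types in the Id1, Bmp2 and Bmp7 results was not tested. DTR Lgr5Hi replicate 1, the lowest for Id1, was also the lowest of its gate for the dividing list (6.23), the pit list (8.02), Id2 and Id3.

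Whole pylorus had the highest Id1 of the series, 9.32 and 9.11. This was 2.26 ± 0.27 above pyloric Lgr5Hi cells, or 4.78-fold (adjusted p = 1.75e-05), under all 14 alternatives. Whole colon read 8.26 and 8.48, the first on the array that goes against its label. The connective tissue genes Dcn and Acta2 were also higher in whole pylorus than in Lgr5Hi cells, by 2.55 (limma adjusted p = 0.00272) and 1.67 (limma adjusted p = 0.0175). In all, 4 of the 10 fibroblast and smooth muscle markers were higher, where 5.98% of all genes were called. Their part in the Id1 result was not tested.

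Id3 (probe set 17420016, chromosome 4) was lower in bright cells of the colon on every array. It was 5.82, 6.61 and 5.78 in colon Lgr5Hi and 6.93, 6.96 and 7.05 in Lgr5Lo cells, a difference of -0.90 (interval -1.39 to -0.42). Its p was 0.000803 before adjustment and 0.557 after, so it was not called. The colon fit called 0 of 22180 genes, with 1000 genes under an unadjusted p of 0.05 in limma. In the small intestine Id3 was 6.76 and 6.89 in Lgr5Hi against 7.55 and 7.24 in Lgr5Lo cells, a difference of -0.57 (adjusted p = 1). DTR Lgr5Hi cells, at 6.77, 7.99 and 7.86, lay below Lgr5Lo cells at 8.14, 8.29 and 8.29, by -0.70 (adjusted p = 0.16). IRES pylorus gave -0.34 (adjusted p = 0.507) and wild-type pylorus 0.03 (interval -0.40 to 0.46). No test showed the Id3 gate difference to vary by organ: pylorus minus colon was 0.57 (adjusted p = 0.668).

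Between organs, within sorted IRES cells, Id3 was higher in pylorus than in colon. Pyloric Lgr5Hi cells read 7.64, 7.86, 7.61 and 7.93, above all small intestinal and colonic Lgr5Hi values given above. The pyloric excess was 1.69 ± 0.22 over colon (3.22-fold, adjusted p = 2.12e-05) and 0.94 ± 0.25 over small intestine (adjusted p = 0.0135). In Lgr5Lo cells, where the pylorus read 8.22, 8.00, 7.72 and 8.45, it was 1.12 ± 0.22 over colon (adjusted p = 0.00198) and 0.70 over small intestine (adjusted p = 0.0867). Both colon results held under all 15 alternatives, whereas the Lgr5Hi result against small intestine was lost without either of its 2 small intestinal arrays. Wild-type pyloric cells read far lower, 5.82 to 6.53, than the 6.77 to 8.45 of sorted pyloric cells of the other lines and overlapping the 5.78 to 6.61 of colon Lgr5Hi cells. The crypt arrays (7.73 and 7.89) and the second whole-colon array (7.93) reached the level of pyloric Lgr5Hi cells. Mouse line and sorting method cannot be told apart there, and no test was made.

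Id2 (probe set 17280310, chromosome 12) set the pylorus apart in both gates. In Lgr5Hi cells it was 7.78, 8.05, 7.72 and 7.68 in pylorus, 6.37 and 6.23 in small intestine, and 6.18, 6.07 and 5.84 in colon. In Lgr5Lo cells it was 7.57, 8.42, 6.97 and 7.51 in pylorus, 6.77 and 6.27 in small intestine, and 5.85, 5.68 and 5.87 in colon. Every pyloric value exceeded every intestinal one of the same gate. The excess over colon was 1.78 ± 0.39 in Lgr5Hi (3.43-fold, adjusted p = 0.00466) and 1.82 ± 0.39 in Lgr5Lo cells (3.53-fold, adjusted p = 0.00455), both under all 15 alternatives.

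Against small intestine the Id2 excess was 1.51 ± 0.44 in Lgr5Hi cells (adjusted p = 0.0254), lost without pyloric replicate 2 or either small intestinal array, and 1.09 in Lgr5Lo cells (adjusted p = 0.139). Without whole-colon replicate 1, the latter passed (adjusted p = 0.0136). That array read 8.30 for Id2, in the pyloric range, and the second whole-colon array 5.70. Between gates of one organ Id2 passed in none of the 7 comparisons made: its DTR Lgr5Hi minus Lgr5Neg interval ran from -0.20 to 0.75, and its wild-type interval from -0.28 to 0.44. The DTR groups were at 7.65 to 8.66, the wild-type groups at 7.28 to 7.67.

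The organ results for Id2, Id3, Bmp7 and Bmpr1a accompany large differences in cell markers. In Lgr5Hi cells the dividing cell list averaged 6.71 to 7.14 in pylorus, 8.43 and 8.50 in small intestine and 7.80 to 8.30 in colon. Against each, 4 of 5 of its genes were lower in pylorus, where 12.4% and 7.12% of all genes were called. In Lgr5Lo cells the dividing list ran the other way against colon, at 7.47 to 8.12 in pylorus and 7.16 to 7.66 in colon. Of its genes 1 of 5 was higher, where 6.34% of all genes were called. The list was 7.87 and 8.31 in small intestinal Lgr5Lo cells. The gastric lists differed most: in Lgr5Hi cells the pit list averaged 10.74 to 12.21 in pylorus and 3.90 to 4.48 in the intestine, and the gland mucous list 11.56 to 12.05 and 3.92 to 5.81. The Paneth list, 3.91 to 7.31 in pylorus, was 11.95 and 12.06 in small intestine and 6.05 to 8.01 in colon. The part of these cell types in the organ results was not tested. Without both arrays numbered 4, Id2 and Id3 kept their calls against colon in both gates.

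Smad6 and Smad7, the inhibitory Smads, passed the test in no comparison of sorted gates. The Smad6 promoter window (chr9:64022030-64022309, minus strand) is shown for a feature rare among promoters, GTCTAGAC in capitals, which joins a pair of the GTCT letters known to be bound by Smad4 and reads the same on both strands.
Smad6: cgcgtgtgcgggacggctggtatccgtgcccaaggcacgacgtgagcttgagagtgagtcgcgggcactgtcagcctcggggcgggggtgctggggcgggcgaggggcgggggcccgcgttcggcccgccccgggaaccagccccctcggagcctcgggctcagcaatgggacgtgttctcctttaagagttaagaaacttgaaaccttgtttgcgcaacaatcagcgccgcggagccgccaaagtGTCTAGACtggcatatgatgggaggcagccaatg
It began 4 bases before the start site, and it occurred in 0.213% of the 32851 windows and in none of the other 5 matched genes. The window of Smad7 was left out of the matching, so the motif cannot be called particular to Smad6 among the members. GTCT alone occurred in 88% of windows, and it is contained in the longer motif.

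Smad6 (probe set 17528125, chromosome 9) lay near background in most groups. It was 4.38 to 4.72 over all DTR arrays, where the Lgr5Hi minus Lgr5Neg interval ran from -0.38 to 0.19. In wild-type pylorus it was 4.55, 3.99, 3.82 and 4.80 in Aqp5Pos and 5.05, 5.01, 5.16 and 4.48 in Aqp5Neg cells, a difference of -0.63 (adjusted p = 0.181) between overlapping groups. Small intestinal Lgr5Hi cells had 3.31 and 4.16, under the 4.49 and 4.47 of Lgr5Lo cells, by -0.75 (adjusted p = 1).

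Smad6 was 5.40 and 5.32 in whole pylorus, above every IRES Lgr5Hi value (4.15, 4.42, 4.34 and 4.73). The difference of 0.95 ± 0.30 did not pass (adjusted p = 0.0616). It passed with the replicate number as a block (replicate block: 1.17, adjusted p = 0.0111), without whole-colon replicate 1 (adjusted p = 0.0346) and without both arrays numbered 4 (adjusted p = 0.0353).

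Smad7 (probe set 17351862) was 6.79 and 6.86 in whole pylorus against 5.56, 5.98, 5.53 and 5.92 in Lgr5Hi cells. The difference of 1.08 ± 0.28 passed (adjusted p = 0.0208), but not with the replicate block (0.92, adjusted p = 0.081), nor without either whole array or Lgr5Hi replicate 1. The arrays labelled crypt had its highest group mean, at 7.06 and 7.19 against 5.24 to 5.47 in the sorted and whole small intestine, where no test was made. The highest single value, 7.23, was on the first whole-colon array, which goes against its label. In the DTR gates it was 5.60 to 6.26, with a Lgr5Hi minus Lgr5Neg interval from -0.16 to 0.57. The difference was -0.40 in wild-type pylorus (adjusted p = 0.356), -0.32 in IRES pylorus (adjusted p = 0.598) and -0.42 in colon (adjusted p = 1).

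**Figure D2:**
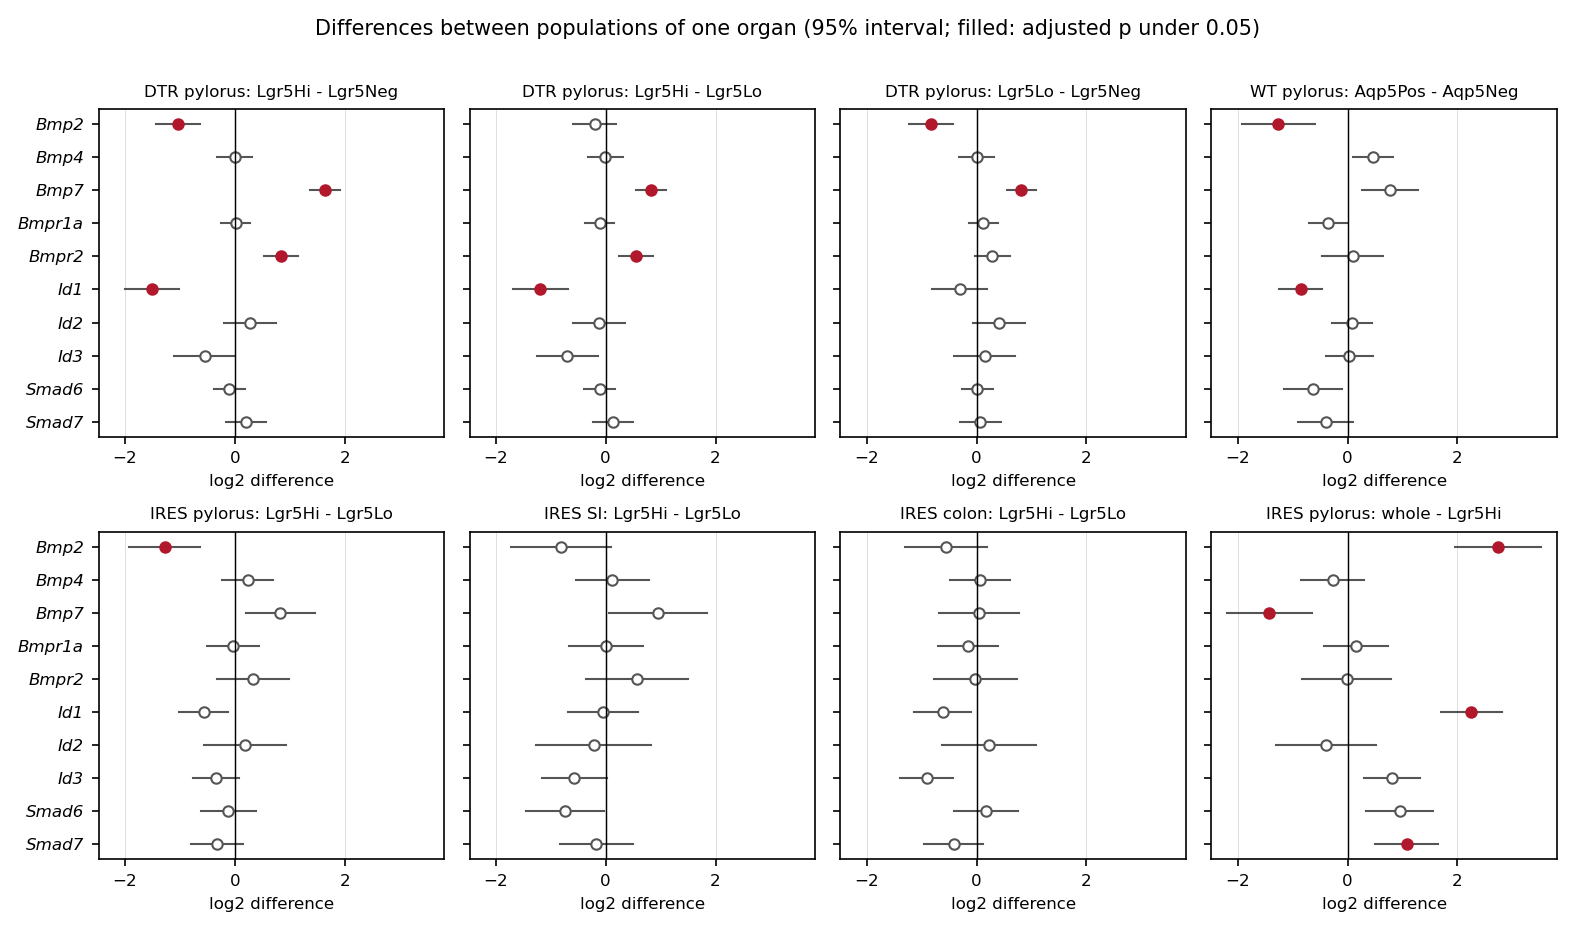
Log2 difference between populations of one organ (horizontal axis) for the 10 genes, with the 95% interval as a line; filled points passed an adjusted p of 0.05, and SI is small intestine. Bmp2 is filled to the left in 4 of the 5 pyloric gate panels, Bmp7 to the right in the DTR panels, and Id1 to the left in 3 panels; no point is filled in small intestine or colon.

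The counts for the 10 genes stand beside those for all genes. Between DTR Lgr5Hi and Lgr5Neg cells 4 of 10 were called, 2 higher and 2 lower, where 18.3% of all genes were; between Lgr5Hi and Lgr5Lo cells 3 were called (4.97% of all genes), and between Lgr5Lo and Lgr5Neg cells 2 (2.20%). The IRES pyloric gates called 1 (1.49%), the wild-type gates 2 (2.80%), the small intestinal gates 0 (0.185%) and the colonic gates 0 (0%). The median difference over the 10 genes was 0.01 for DTR Lgr5Hi minus Lgr5Neg and -0.16 for the wild-type sort, against 0.02 and 0.06 over all genes. Whole pylorus minus Lgr5Hi called 4 (5.98%). For the difference in gate effect, pylorus minus colon called 0 (0.225%) and pylorus minus small intestine 0 (0.0316%), with 1866 and 1637 genes under an unadjusted p of 0.05 in limma and none of the 10 genes among them.

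Between organs, Lgr5Hi cells of pylorus and small intestine differed in 2 of the 10 genes (12.4% of all genes), those of pylorus and colon in 4 (7.12%), and those of small intestine and colon in 0 (2.60%). In Lgr5Lo cells the counts were 0 for pylorus minus small intestine (8.17%), 2 for pylorus minus colon (6.34%) and 0 for small intestine minus colon (4.46%). All called organ differences were higher in pylorus. The median over the 10 genes was 0.58 for Lgr5Hi pylorus minus small intestine and 0.67 for Lgr5Lo, against 0.08 and 0.11 over all genes. Against colon it was lower, 0.18 and 0.17, where all genes gave 0.03 and 0.06. Of the 160 differences computed, 24 were called and 9 of those were called under every alternative.

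**Figure D3:**
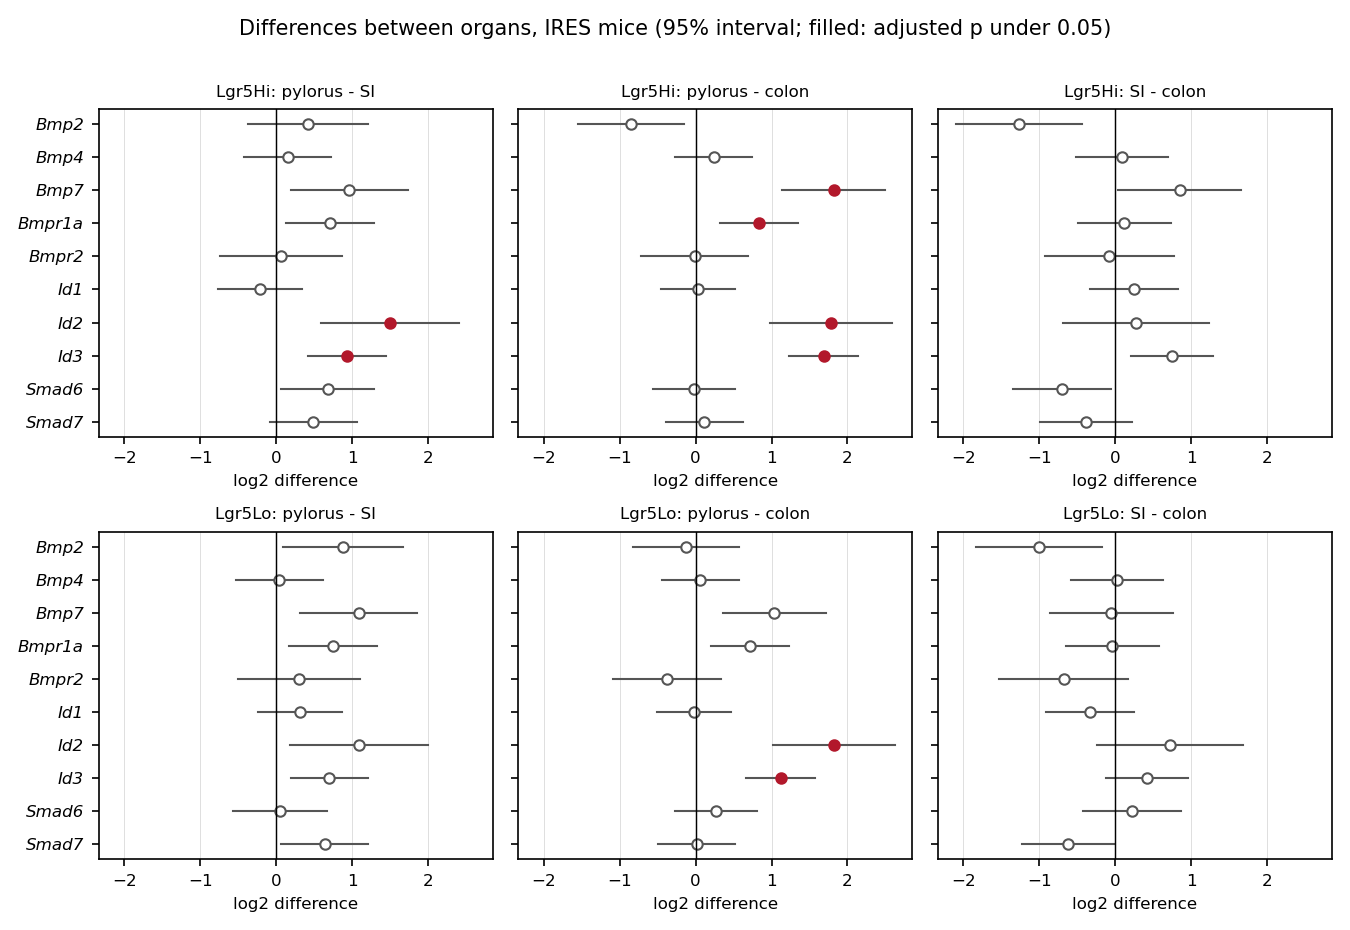
Log2 difference between organs in IRES mice (horizontal axis) for the 10 genes, in Lgr5Hi cells (top) and Lgr5Lo cells (bottom), with the 95% interval as a line; filled points passed an adjusted p of 0.05 and SI is small intestine. Id2 and Id3 are filled in the pylorus minus colon panels of both gates, at 1.78 and 1.69 in Lgr5Hi cells, and no point is filled between small intestine and colon.

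Of 50 further pathway genes listed, 46 were measured. Between DTR Lgr5Hi and Lgr5Neg cells 6 were higher and 1 lower (18.3% of all genes were called), with a median of 0.07, so their count did not exceed the share over all genes. Chrdl1, a secreted antagonist that binds BMP ligands, was 4.43, 4.81 and 3.99 in Lgr5Hi and 3.16, 3.18 and 2.53 in Lgr5Neg cells, a difference of 1.46 ± 0.25 (adjusted p = 0.00101). The Lgr5Neg values lie below every array median, so the size of this difference is not well measured. Rgmb, a BMP co-receptor, was higher by 0.79 ± 0.16 (adjusted p = 0.00395). Smad4, the partner of all receptor-activated Smads, was higher by 0.43 (adjusted p = 0.0306), and Smurf1, a ubiquitin ligase that targets Smad1 and Smad5, was lower by -0.60 (adjusted p = 0.00586).

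Between DTR Lgr5Hi and Lgr5Lo cells 0 of the 46 were higher and 2 lower, where 4.97% of all genes were called: the BMP target Atoh8, by -0.71 (adjusted p = 0.0213), and Smad9, by -0.57 (adjusted p = 0.0469), from a mean of 4.30 to one of 3.73 close to background. Between Lgr5Lo and Lgr5Neg cells, and between IRES pyloric gates, 0 were called (2.20% and 1.49% of all genes), with 7 and 5 under an unadjusted p of 0.05 in limma. In the wild-type sort Twsg1, a secreted modulator of BMP ligands, was the 1 gene called (2.80% of all genes). It was 5.50, 5.78, 5.67 and 5.48 in Aqp5Pos cells, below the 6.33 to 6.86 of Aqp5Neg cells, a difference of -0.90 ± 0.18 (adjusted p = 0.0201). In DTR mice Twsg1 lay at 6.93 to 7.44 in Lgr5Hi and 6.49 to 6.82 in Lgr5Neg cells, so the 2 sorts pointed opposite ways for it, a contrast that was not tested.

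In the small intestine Rgmb was the 1 pathway gene called between gates (0.185% of all genes). It was 8.97 and 8.88 in Lgr5Hi and 7.20 and 7.42 in Lgr5Lo cells, a difference of 1.61 ± 0.33 (adjusted p = 0.0465). It was also lower in pyloric than in intestinal Lgr5Hi cells, by -1.54 ± 0.29 against small intestine (adjusted p = 0.000691) and by -0.98 ± 0.25 against colon (adjusted p = 0.0166).

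The ligand Bmp3, which antagonises other BMPs, had the largest organ difference among the pathway genes named here. It was 4.20 to 4.83 in pyloric Lgr5Hi cells, 7.06 and 7.46 in small intestine, and 6.29 to 7.36 in colon. The pyloric means, 4.59 in Lgr5Hi and 4.55 in Lgr5Lo cells, are close to background, so the sizes of its organ differences are not well measured. The pyloric level was lower by -2.66 ± 0.46 against small intestine (adjusted p = 0.000326) and by -2.26 ± 0.40 against colon (adjusted p = 0.000738), and in Lgr5Lo cells by -2.32 (adjusted p = 0.00175) and -2.15 (adjusted p = 0.00141). Bmp7 pointed the other way between the same organs in both gates, but in the main fits it passed only for Lgr5Hi pylorus minus colon.

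Against small intestine 4 of the 46 were higher and 4 lower in pyloric Lgr5Hi cells (12.4% of all genes were called), and against colon 0 higher and 3 lower (7.12%). Fstl1, a secreted BMP-binding glycoprotein, was lower by -1.31 in pylorus (adjusted p = 0.00116), and it was 1.45 higher in small intestinal than colonic Lgr5Hi cells (adjusted p = 0.00226). Gdf2, a BMP ligand known for acting on endothelium, was 0.96 higher in pylorus than in small intestine (adjusted p = 0.0155), between means of 4.45 and 3.49 that lie close to background. Atoh8 was lower by -0.98 against colon (adjusted p = 0.00291).

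In Lgr5Lo cells 2 of the 46 were higher and 1 lower against small intestine (8.17% of all genes), and 0 higher and 2 lower against colon (6.34%), both counts under those shares. Sostdc1, a secreted antagonist, was 1.26 higher in pylorus than in small intestine (adjusted p = 0.0428), where its mean of 3.70 is close to background, and so was the Smad repressor Skil, by 1.07 (adjusted p = 0.0431). Bambi, a pseudoreceptor that dampens the pathway, was lower by -0.99 against colon (adjusted p = 0.03). Whole pylorus exceeded Lgr5Hi cells in 2 of the 46 (5.98% of all genes were called), Tob1, a repressor of Smad signalling, by 1.03 (adjusted p = 0.0131), and Smurf1, by 1.42 (adjusted p = 0.0147). With Smad7, 3 of the 8 intracellular inhibitors measured were higher in whole pylorus, with a list median of 0.90 against -0.09 over all genes.

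**Figure D4:**
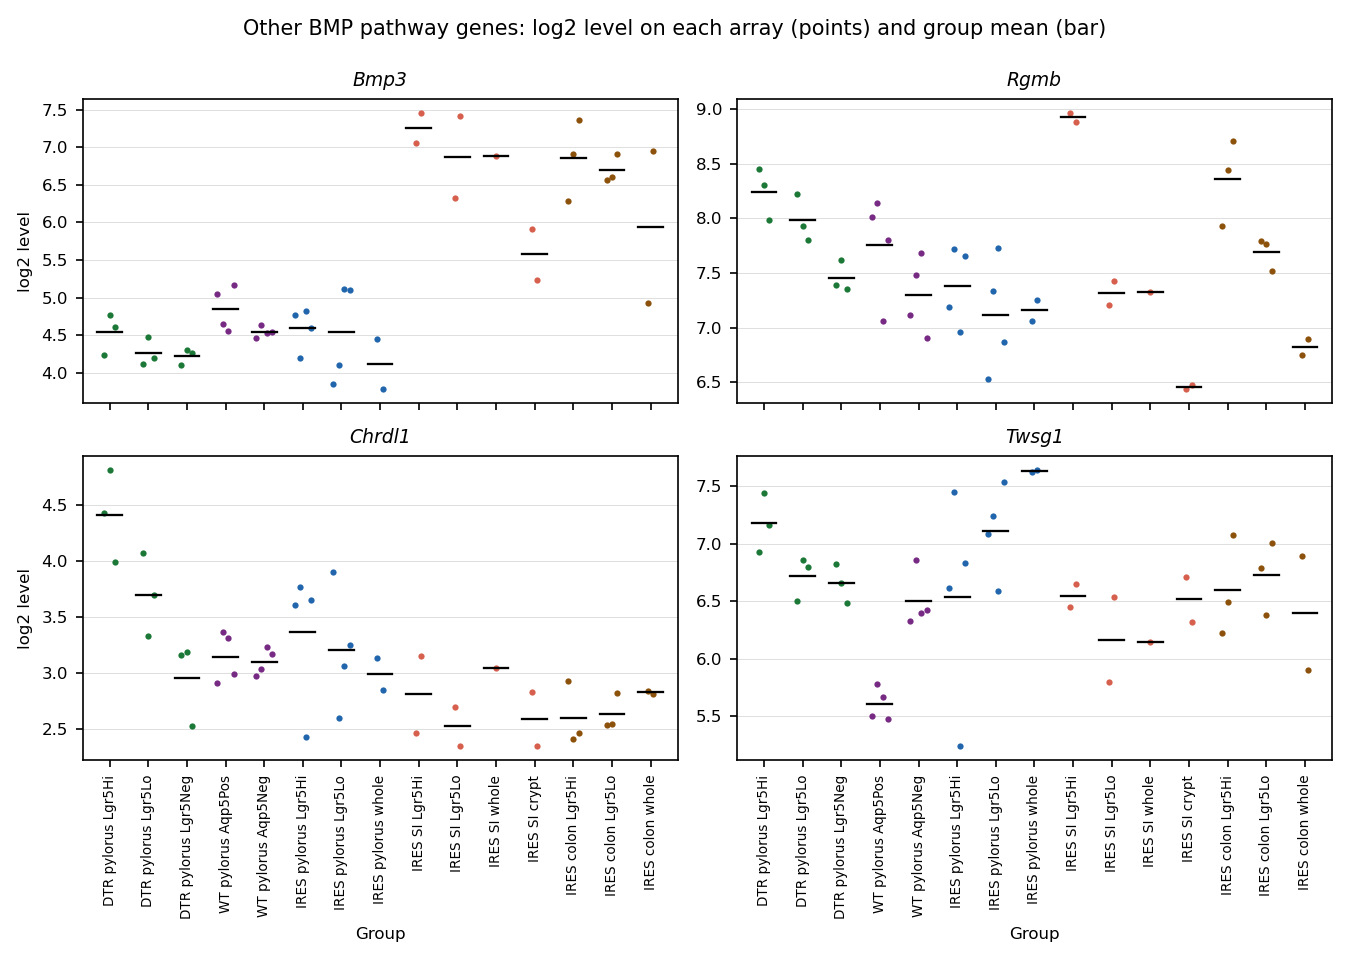
Log2 level of 4 other BMP pathway genes on each array (vertical axis, its own range per panel) in the 15 groups (horizontal axis; SI is small intestine); points are arrays and bars are group means. Bmp3 is at 4.20 to 4.83 in pyloric Lgr5Hi cells of IRES mice and at 6.29 or more in sorted cells of the intestine, and Twsg1 is low in Aqp5Pos cells.

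Over all 15 groups some members shared the ends of their order. Bmp2 and Smad6 were both lowest in small intestinal Lgr5Hi cells and highest in whole pylorus, where Id1 and Id3 were also highest. Whether the members' profiles differ was not tested. Ordered by group mean, 13 of 14 neighbouring pairs of groups overlapped for Bmp2, Bmp7, Bmpr1a, Bmpr2, Smad6 and Smad7. The count was 14 for Bmp4, 12 for Id2, 11 for Id1 and 9 for Id3, so most neighbours in these orders did not separate. No such count was made over all genes. The means spanned 3.16 for Bmp2, from 3.99 in small intestinal Lgr5Hi cells to 7.15 in whole pylorus, and 3.25 for Bmp7, from 4.87 in the crypt arrays to 8.12 in DTR Lgr5Hi cells. Id1 spanned 2.92, from 6.29 in Aqp5Pos cells to 9.21 in whole pylorus. Id2 spanned 2.50, from 5.80 in colon Lgr5Lo to 8.30 in DTR Lgr5Lo cells, and Id3 2.49, from 6.07 in colon Lgr5Hi cells to 8.57 in whole pylorus.

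As a description over the 15 group means, which share mouse lines and organs, the genes with the profile most like each member were as follows. Bmp7 was most like Prom1, which encodes the stem cell surface protein CD133 (r = 0.96), Slc1a2 (0.96) and Lurap1 (0.95). Bmp2 was most like Cmtm4 (0.94), Ermp1 (0.92) and Tpm1 (0.90). Bmpr1a was most like Aldh1a7 and Mocs1 (0.93 each), and Bmpr2 like Tab2 (0.97). Id1 was most like Ccdc124 (0.95), Id2 like Glb1l2 and Erlin1 (0.95 each), and Id3 like Vamp8 (0.93). For Smad6 the gene was Sh3bp1 (0.88) and for Smad7 Sgk2 (0.93).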

How the data were processed

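The authors deposited log2 expression values for 42 Affymetrix mouse arrays, made from RNA amplified from at least 2 ng per the labels' protocols. The submitters' processing notes name RMA, oligo, limma 3.26.8, R 3.2.3 and Partek, without role or order; the genome build is not given in the sources used here. Of 41345 probe sets, 23521 had 1 gene symbol in the platform annotation, 1814 several and 16010 none. The probe set with the highest mean stood for each of 22180 genes. There were no detection calls, and the number of arrays limits the precision.

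Samples were grouped by title. For the 9 DTR arrays another label gives the IRES line as the model, and the title was followed. Linear models were fitted to the deposited log2 values across all genes with limma 3.58.1 in R 4.3.3, with a term per group. They were fitted separately for IRES (25 arrays), DTR (9) and wild-type mice (8). The first whole-colon array, which goes against its label, was kept in the main IRES fit. No comparison uses the whole-colon group, but its spread enters the residual spread behind every IRES p-value. For Id2 that group had a standard deviation of 1.84. Leaving the array out keeps the size of each IRES difference but can change whether it passes. P-values were adjusted by Benjamini-Hochberg over all genes of each of 16 comparisons, and a gene is called at an adjusted p under 0.05. Several comparisons share arrays. P-values measure the spread between these samples, which the labels call biological replicates without naming animals. The scripts were tested on simulated data.

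The 10 genes and all lists were chosen with earlier results of these data known. Named were the members, Lgr5 and Aqp5, up to 4 called pathway genes with the smallest p per comparison, and the 3 genes most like each member over 15 group means. Dcn and Acta2 were named after their values were seen. Alternatives were another probe set rule, array centring, eBayes with trend, a level filter, 1 fit over all arrays, a replicate block and each array left out. Each member has 1 probe set that names it alone, so the other probe set rule could change no member's difference, though it is counted among the alternatives. Leaving out both IRES pyloric arrays numbered 4 was added after seeing the data. Same-numbered Lgr5Hi and Lgr5Lo arrays of IRES mice deviated together in pylorus (r = 0.16, 0.10, 0.27 and 0.30) and colon (0.18, 0.14 and 0.24). These numbers were taken as possible pairs, and those of DTR (-0.11 to 0.15) and wild-type mice (-0.02 to 0.17) were not. All main fits left the replicate numbers out, so no main p-value is paired. The numbers entered only in the replicate block alternative, which was run for every mouse line. Promoter windows came from RefSeq (GRCm38.p6).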

Additional observations from a re-analysis of the deposited data

Results flagged for a closer look

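In wild-type pylorus 4 values stood far from the other 3 arrays of their group. They come from 40 sets examined, each of 1 gene in 1 group of 4 arrays. Chance alone flags about 1 in 20 independent sets, but these sets share arrays, so that rate is only a guide. In Aqp5Pos cells replicate 3 was the highest for Bmpr2, at 9.03 with the nearest array at 7.92, and also for Bmpr1a, at 7.83 with the nearest at 7.66. In Aqp5Neg cells replicate 2 was the lowest for Bmp2, at 4.94 with the nearest at 5.96. Replicate 1 of that gate was the lowest for Bmpr1a, at 7.88 with the nearest at 8.09.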

How the results depend on the processing

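No difference of the 10 genes changed direction among those called. In 1 fit over all 42 arrays the members called numbered 2 for DTR Lgr5Hi minus Lgr5Neg, 1 for Lgr5Hi minus Lgr5Lo, 0 for Lgr5Lo minus Lgr5Neg, 4 and 3 for pylorus minus small intestine in Lgr5Hi and Lgr5Lo cells, and 4 for Lgr5Lo pylorus minus colon; the DTR calls lost there were those of Bmp2 and Bmpr2 and both single steps of Bmp7. IRES pylorus Lgr5Hi minus Lgr5Lo had 0 with centred arrays and 0 without both arrays numbered 4. Leaving out 1 array gave 1 to 3 for DTR Lgr5Hi minus Lgr5Lo, 1 to 2 for Lgr5Lo minus Lgr5Neg, 0 to 1 for the IRES pyloric gates, 0 to 2 for the wild-type gates, 0 to 3 and 0 to 2 for pylorus minus small intestine in Lgr5Hi and Lgr5Lo cells, 0 to 1 for Lgr5Hi small intestine minus colon, 2 to 4 for Lgr5Lo pylorus minus colon, and 2 to 6 for whole pylorus minus Lgr5Hi. Whole-colon replicate 1 left out gave 4 for Lgr5Lo pylorus minus colon. The share of all genes called under each of these settings is not given here, so these counts are not read as a result about the 10 genes. The cause of these changes was not tested. The replicate block changed 2 of 160 calls, both in whole pylorus minus Lgr5Hi: Smad7 was lost (adjusted p = 0.081) and Smad6 gained (adjusted p = 0.0111). Levels near or below the array medians, as for Bmp4, Smad6 and Bmp2 in IRES Lgr5Hi cells, limit what the arrays can show.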
